A study of Mus musculus with 9 samples.

Results

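The genes described here encode 8 transcription factors of epithelial cells (Grhl1, Grhl2, Ovol1, Ovol2, Elf3, Ehf, Klf5 and Trp63) and the splicing regulators Esrp1 and Esrp2. They were chosen by symbol, and all 10 were found among the 22469 genes of the deposited table. The cells were 4T1, derived from a mammary tumour of the mouse, and were either WT or carried a knockout of Nat10, the gene for an RNA cytidine acetyltransferase. The knockout was held in the lines KO-c19 and KO-c43, so each knockout group is 1 line, and each of the 3 groups was grown as 3 biological replicates without treatment, seeded at 300000 cells per dish of 6 cm and collected at 48 h. Sequencing covered total RNA after removal of ribosomal RNA. The values are normalized counts, taken here as reads per gene divided by a scaling factor for each library. By an estimate from the spacing of low values, a single read was worth 0.822 to 1.11 normalized counts, depending on the library.

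ESRP1 and ESRP2 are RNA-binding proteins that set the epithelial pattern of exon choice in transcripts such as those of Fgfr2, Cd44 and Ctnnd1. GRHL2 binds enhancers and promoters of genes for cell junctions, including Cdh1, and OVOL proteins repress genes that favour mesenchymal states. In carcinoma cells these factors and the repressors ZEB1 and ZEB2 are known to hold each other down, and ESRP1 is lost in the epithelial-mesenchymal transition of many cell models.

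Nat10 checks the labels: it had 6428 to 6501 normalized counts in WT, 1710 to 1761 in KO-c19 and 1724 to 1766 in KO-c43, or 27.0% and 27.1% of the WT mean. Normalized totals ran from 45628576 to 50123222 per library. Of 10 markers of mammary epithelium, 9 were in the table, and their summed normalized count was 139016 to 149032 in WT, 95573 to 103744 in KO-c19 and 90991 to 94050 in KO-c43. In each line 7 of the 9 were lower and 2 higher in the limma test described below, with median log2 changes of −2.18 and −2.82. Of all tested genes, 34.9% were lower and 32.8% higher in KO-c19, and 33.1% and 32.5% in KO-c43. Muc1, among the 7, passed the minimum for testing through WT alone, so its decrease was built in. The 2 higher were Krt8 and Krt18, keratins of simple epithelium, with means of 25607 and 29843 in WT, 31153 and 36345 in KO-c19, and 28918 and 33656 in KO-c43. Krt5 was not among the genes analysed here. Of 10 endothelial markers 4 were in the table, with sums of 7.77 to 17.5 in WT, 17.8 to 30.4 in KO-c19 and 7.33 to 8.13 in KO-c43. Of 10 immune markers 3 were in the table, with sums of 458 to 487, 261 to 327 and 181 to 238. Ptprc, the leukocyte marker CD45, stayed under 10 in every library of WT and KO-c43 and had a mean of 9.09 in KO-c19. Csf1r had means of 293, 15.0 and 12.6 in WT, KO-c19 and KO-c43 and was lower in both lines. Cd68 had means of 182, 280 and 192 and was higher in KO-c19 alone. Of 10 fibroblast markers 5 were in the table, with sums of 507 to 517, 838 to 904 and 411 to 510. Of the 4 fibroblast markers tested, Pdgfra was higher in both lines, with means of 273, 866 and 450, and 3 were lower, namely Postn, with means of 192, 0.371 and 0, Col1a1 and Col1a2. These 3 passed the minimum for testing through WT alone. The part of other cell types in the results was not tested. Since RNA was taken from whole cultures, fewer cells expressing a gene and less of its RNA per cell cannot be told apart.

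Promoter sequences from RefSeq (GRCm38.p6) matched 3 of the 10 genes, Elf3, Ovol2 and Grhl1, and these are shown because no others were available. The 3 genes fell in both lines, as did most of the 10, and a link to their sequences was not tested. Coordinates of the windows are of that build and differ from the table positions given further on. Each window runs from 250 bases before to 50 bases after the annotated start, written 5′ to 3′ on the strand of the gene. Capitals mark the E-box CAGGTG bound by Zeb and Snail repressors, the Grhl core AACCGG, the ETS core CCGGAA or the GC box GGGCGG, each searched on both strands. The Grhl and ETS letters can overlap each other. Among 32851 windows of this length, 20.2% held the E-box, 6.83% the Grhl core, 14.9% the ETS core and 35.7% the GC box.
Elf3, chr1:135258423-135258722, minus strand: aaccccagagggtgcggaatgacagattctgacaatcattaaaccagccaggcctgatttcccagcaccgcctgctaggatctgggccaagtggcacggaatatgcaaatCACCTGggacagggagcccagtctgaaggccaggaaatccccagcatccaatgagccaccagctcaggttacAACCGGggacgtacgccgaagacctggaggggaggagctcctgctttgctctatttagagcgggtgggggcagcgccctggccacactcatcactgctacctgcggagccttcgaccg
Ovol2, chr2:144331313-144331612, minus strand: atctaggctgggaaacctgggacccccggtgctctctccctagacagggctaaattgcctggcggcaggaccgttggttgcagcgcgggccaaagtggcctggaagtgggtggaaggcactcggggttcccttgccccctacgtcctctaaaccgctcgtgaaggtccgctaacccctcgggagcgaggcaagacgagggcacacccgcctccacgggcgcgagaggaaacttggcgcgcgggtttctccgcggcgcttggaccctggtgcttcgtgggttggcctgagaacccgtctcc
Grhl1, chr12:24572037-24572336, plus strand: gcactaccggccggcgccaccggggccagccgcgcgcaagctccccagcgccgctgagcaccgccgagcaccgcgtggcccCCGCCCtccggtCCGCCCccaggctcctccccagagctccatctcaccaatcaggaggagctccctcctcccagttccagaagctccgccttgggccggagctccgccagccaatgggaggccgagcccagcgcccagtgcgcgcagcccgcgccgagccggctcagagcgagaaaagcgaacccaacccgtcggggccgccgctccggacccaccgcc
The Elf3 window held 1 E-box, in the orientation CACCTG and starting 140 bases before the start, and 1 Grhl core starting 68 bases before it. The Grhl1 window held 2 GC boxes. A second annotated start of Grhl1, with the window chr12:24580469-24580768, is not shown and held none of the 4 motifs. The Ovol2 window held none of the 4 motifs, which says no more than that these letters are absent there.

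In both knockout lines most of these genes were lower than in WT, from the loss of nearly every Esrp1 read to a small decrease of Grhl2, and Klf5 alone was higher. Of the 10 genes, 9 had at least 10 normalized counts in at least 3 libraries and were tested, within a limma fit of log2(normalized count + 1) over 17579 genes. In KO-c19 against WT, 8 were lower and 1 was higher (Benjamini-Hochberg adjusted p under 0.05), where 34.9% of all tested genes were lower and 32.8% higher. In KO-c43 against WT the counts were again 8 and 1, where 33.1% and 32.5% of tested genes were lower and higher. In either direction, 67.6% and 65.6% of tested genes were called in KO-c19 and KO-c43. The median log2 change of the 9 was −0.81 in KO-c19 and −2.06 in KO-c43, beside 0.0032 and 0.0070 over all tested genes. Esrp1 and Trp63 entered the test through their WT libraries alone, so a decrease was built into their entry, and the counts and medians are given as a description. A change of at least 2-fold was passed downward by 4 genes in KO-c19 (Esrp1, Esrp2, Grhl1 and Trp63) and by 7 in KO-c43, where Ovol1, Ovol2 and Elf3 joined them. Klf5, higher by 1.25-fold and 1.20-fold, did not reach it. Of all tested genes, 6.41% passed the 2-fold mark downward and 9.06% upward in KO-c19, 6.18% and 8.28% in KO-c43. Without overlap, 7 of the 9 lay below WT in KO-c19 and 8 in KO-c43, against 36.2% and 35.6% of tested genes, and Klf5 lay above WT in both, against 34% and 35%. Both comparisons share the WT libraries. Replicates were cultures of the same line, so the p-values do not cover variation between independently edited lines.

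**Figure D1:**
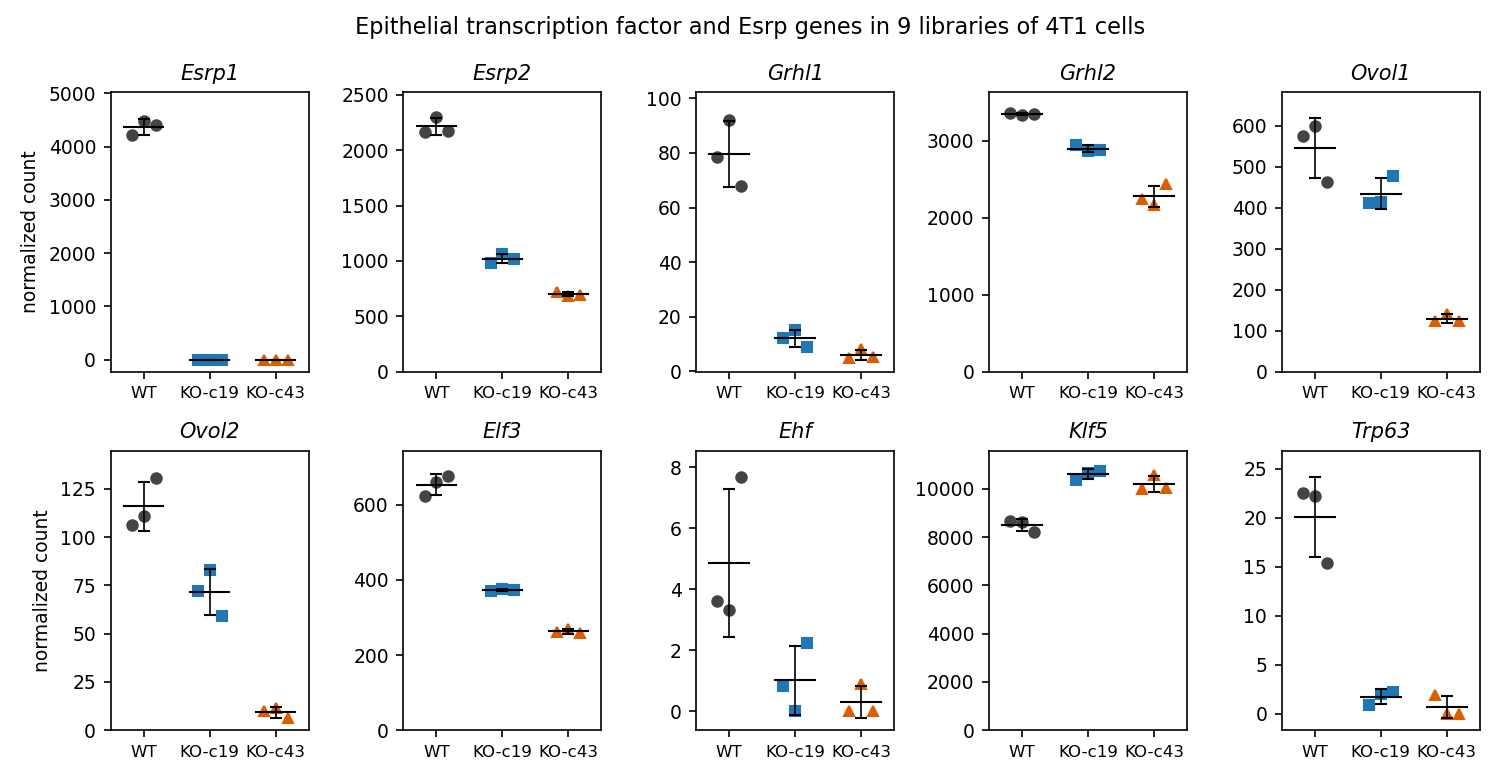
Normalized counts of the 10 genes in each of 9 libraries, by group, with a scale of its own for each gene; points are libraries, horizontal lines are means and error bars are SD (n = 3). Esrp1 lay between 4212 and 4491 in WT and at or near 0 in the knockout lines, while Klf5 was the gene whose knockout libraries all lay above WT.

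In the WT libraries Esrp1 had 4212, 4491 and 4416 normalized counts. Every KO-c19 library listed it at 0. KO-c43 had 2 libraries listing it at 0 and another at 1.05, about 1 read. The WT libraries thus lay apart from all 6 knockout libraries, and no fold is given against groups at 0. Since Esrp1 entered the limma test through WT alone, its p from that fit is not given. A two-sided exact permutation test gave p = 0.1 for either line, which is the lowest that 20 divisions of 3 and 3 libraries allow. This outcome was fixed too, since entry through WT alone puts every WT library above every knockout library, and it decides nothing. Esrp1 (ENSMUSG00000040728) lies on the minus strand of chromosome 4, from 11331933 to 11386784. Gene positions here and below are those of the deposited table, which names no genome build.

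The genes around Esrp1 still had reads in both lines and moved in different directions. Dpy19l4, 9.80 kb away on the side of lower coordinates, had mean normalized counts of 1669, 1899 and 2021 in WT, KO-c19 and KO-c43, and its increase passed in both lines (limma adjusted p = 0.0130 and 6.14e-04). The pseudogene Gm11821, 13.6 kb away on the other side, had means of 49.0, 36.0 and 34.5 and was lower in both lines (limma adjusted p = 0.0416 and 0.0247). Beyond it Virma, a gene for a subunit of the RNA adenosine methyltransferase complex, had means of 3658, 3104 and 3304, or 84.8% and 90.3% of WT, and was also lower in both (limma adjusted p = 1.64e-05 and 0.00186). Ints8, for a subunit of the Integrator complex and 77.7 kb away beyond Dpy19l4, had means of 2571, 2136 and 2539 and was lower in KO-c19 (limma adjusted p = 8.83e-05), while KO-c43 did not pass (0.779). These neighbours were looked at after the values of Esrp1 were known. The table gives no values for parts of a gene or for DNA copy number.

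Esrp2, the paralogue of Esrp1 (ENSMUSG00000084128, chromosome 8, minus strand, 106856951 to 106863607), fell without being lost. It had 2168, 2301 and 2176 normalized counts in WT. The KO-c19 libraries had 982, 1063 and 1019, those of KO-c43 719, 683 and 695. The 3 groups did not overlap, with WT highest and KO-c43 lowest. The change from WT was −1.12 ± 0.050 (SE) on the log2 scale in KO-c19 and −1.66 ± 0.050 in KO-c43 (limma adjusted p = 1.11e-12 and 4.86e-15), which left 46.1% and 31.6% of the WT mean. The gene overlaps Nfatc3 by 220 bases and the noncoding gene 1810019D21Rik by 1576 bases on the opposite strand. The library kit keeps strand, but whether the counting used it is not given in the sources used here. Nfatc3 had means of 9374, 7753 and 7310 normalized counts in WT, KO-c19 and KO-c43, above Esrp2 in each group, and 1810019D21Rik had 92.3, 34.9 and 33.5.

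Per kilobase of exon, Esrp1 and Esrp2 stood at 694 ± 22.9 and 510 ± 17.2 normalized counts per kb in WT (SD, n = 3), so that Esrp2 made up 42.4% ± 0.587 of the pair. In KO-c19 Esrp2 made up 100% of what was left and in KO-c43 99.97%. The summed level of the pair was 19.5% of WT in KO-c19 and 13.4% in KO-c43. Exon lengths here are the merged exons of all transcripts in the GENCODE vM21 annotation.

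**Figure D2:**
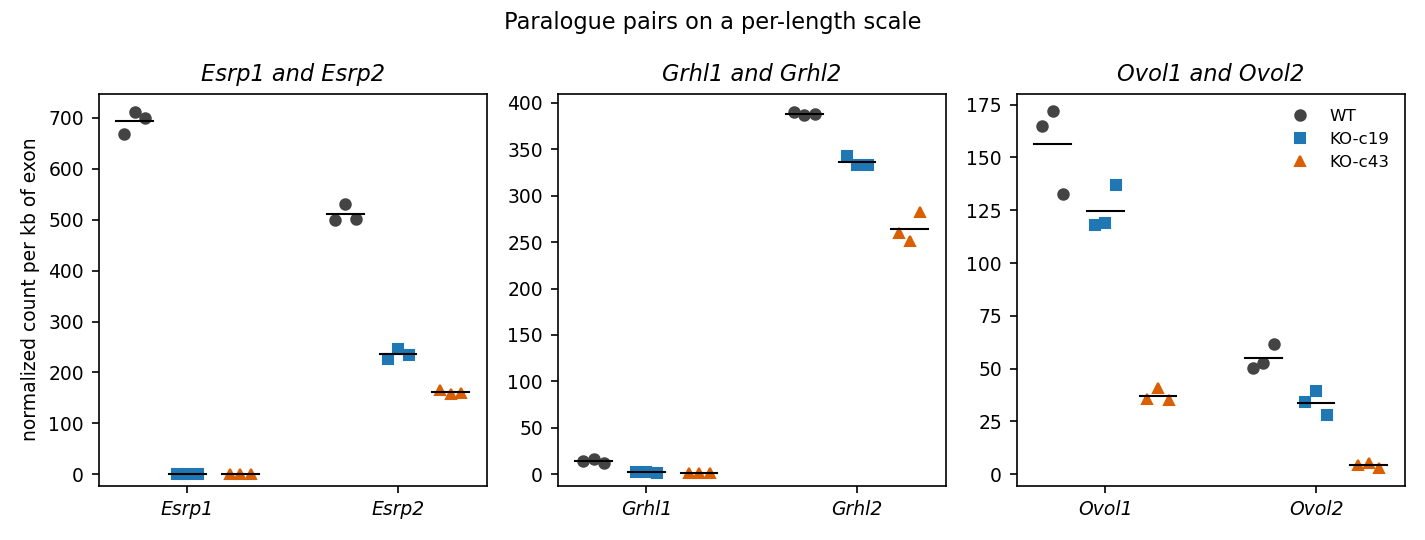
Normalized counts per kb of merged exon for Esrp1 and Esrp2, Grhl1 and Grhl2, and Ovol1 and Ovol2; points are libraries, horizontal lines are group means and each panel has its own scale. The pairs lose different partners: Esrp1 went to 0 or near it while Esrp2 kept 46.1% and 31.6% of WT, and Grhl1 was the minor partner of Grhl2 in every group.

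Grhl2 (ENSMUSG00000022286, chromosome 15, plus strand, 37233280 to 37363814), for the grainyhead-like factor of junction genes, changed least in size among the genes that fell. WT had 3364, 3335 and 3339 normalized counts. The KO-c19 libraries had 2947, 2866 and 2871, those of KO-c43 2237, 2162 and 2432. The groups did not overlap. The log2 change was −0.21 ± 0.044 in KO-c19 and −0.56 ± 0.044 in KO-c43 (limma adjusted p = 3.85e-04 and 3.07e-09), leaving 86.5% and 68.0% of WT. Dividing each library by its total, which moved the median of all genes to 0.10, made the KO-c19 change −0.11 (limma adjusted p = 0.0295), and upper quartile and quantile scaling gave −0.11 and −0.13. Grhl2 overlaps 3 noncoding genes or pseudogenes on the opposite strand, none with a group mean above 102.

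Grhl1 (ENSMUSG00000020656, chromosome 12, plus strand, 24622282 to 24667391), a paralogue best known from epidermis and hair, was far less abundant and fell more steeply. Its WT libraries had 78.5, 92.1 and 67.9 normalized counts. Those of KO-c19 had 12.3, 15.2 and 8.91, and those of KO-c43 had 4.84, 8.12 and 5.24. All knockout libraries lay below all WT libraries. The log2 change was −2.63 ± 0.29 and −3.53 ± 0.29 (limma adjusted p = 2.28e-07 and 4.88e-09), to 15.3% and 7.63% of WT. Its size depends on the pseudocount, with −2.68 and −3.63 at 0.5 and −2.31 and −2.94 at 5, and both calls were kept. On the per-length scale Grhl2 made up 96.4% of the Grhl1 and Grhl2 pair in WT and 99.4% and 99.6% in the lines, and the summed level of the pair stayed at 84.0% and 65.9% of WT. Grhl3, the remaining member of the family and an epidermal barrier factor, went from 158 normalized counts (WT mean) to 2.57 (KO-c19) and 0.301 (KO-c43). It too entered the test through WT alone, and its decrease is a description.

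Ovol1 and Ovol2, zinc finger repressors of mesenchymal genes, separated the lines. Ovol1 (ENSMUSG00000024922, chromosome 19, minus strand, 5599164 to 5610675) had 575, 599 and 464 normalized counts in WT. KO-c19 had 411, 414 and 477, which overlapped WT, whereas KO-c43 had 125, 142 and 123 and lay below both. The log2 change in KO-c19 was −0.32 ± 0.10 (limma adjusted p = 0.00900). That call was lost when each library was divided by its total (−0.23, adjusted p = 0.0520), with upper quartile scaling (−0.23, 0.0583) and without WT replicate 2 (−0.25, 0.0609). In KO-c43 the change was −2.06 ± 0.10 (limma adjusted p = 4.84e-12), to 23.7% of WT.

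Ovol2 (ENSMUSG00000037279, chromosome 2, minus strand, 144147095 to 144174067) had 106, 111 and 130 normalized counts in WT and 72.3, 83.1 and 59.0 in KO-c19. In KO-c43 it had 9.68, 11.7 and 6.28. The 3 groups did not overlap. The log2 change was −0.70 ± 0.22 in KO-c19 (limma adjusted p = 0.00912), a call lost without KO-c19 replicate 3 (−0.57, adjusted p = 0.0504), and −3.55 ± 0.22 in KO-c43 (limma adjusted p = 1.10e-10), to 7.96% of WT. The KO-c43 change was −3.62 with a pseudocount of 0.5 and −3.10 with 5. On the opposite strand Ovol1 overlaps a noncoding gene and a pseudogene, none with a group mean above 10.2. Per kb, the pair of Ovol genes kept 74.9% of its WT level in KO-c19 and 19.6% in KO-c43. Ovol2's part of the pair was 26.2% ± 4.80 in WT, 21.4% ± 4.06 in KO-c19 and 10.4% ± 2.27 in KO-c43, where the first 2 groups overlapped and KO-c43 lay below both.

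Elf3 and Ehf encode ETS factors of the epithelium-specific branch. Elf3 (ENSMUSG00000003051) lies on the minus strand of chromosome 1 from 135181313 to 135186307, and Ehf (ENSMUSG00000012350) on that of chromosome 2 from 103093778 to 103133624. Elf3 had 623, 661 and 676 normalized counts in WT, 371, 375 and 374 in KO-c19, and 260, 271 and 258 in KO-c43. The groups did not overlap, and the KO-c19 libraries lay within 4 normalized counts of each other. The log2 change was −0.81 ± 0.067 in KO-c19 and −1.31 ± 0.067 in KO-c43 (limma adjusted p = 6.23e-09 and 8.05e-12), to 57.1% and 40.2% of WT. The gene lies wholly within the noncoding gene Gm26642 of the opposite strand, which had means of 241, 183 and 172, so reads of the pair may be mixed if the counting ignored strand. Ehf was nearly silent in WT already, with 3.61, 3.33 and 7.67 normalized counts. The KO-c19 libraries had 0.822, 0 and 2.23, those of KO-c43 0, 0.902 and 0. It fell under the minimum for testing. With no filter its log2 difference of −1.63 and −2.17 passed (limma adjusted p = 0.0296 and 0.00508), and these are a handful of reads in WT.

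Klf5, for a zinc finger factor of proliferating epithelial cells, went the other way. The gene (ENSMUSG00000005148, chromosome 14, plus strand, 99536127 to 99552473) had 8648, 8617 and 8208 normalized counts in WT, 10363, 10674 and 10750 in KO-c19, and 10008, 10592 and 10021 in KO-c43. Every knockout library lay above every WT library, and the knockout lines overlapped each other. The log2 change was 0.32 ± 0.037 in KO-c19 and 0.27 ± 0.037 in KO-c43 (limma adjusted p = 4.83e-07 and 5.01e-06), to 125% and 120% of WT, and it stayed positive and past the threshold under the 3 other scalings.

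Trp63 encodes p63, the factor of basal epithelial cells in mammary gland and skin, from chromosome 16, plus strand, 25502513 to 25710853 (ENSMUSG00000022510). Its WT libraries had 22.6, 22.2 and 15.3 normalized counts. The KO-c19 libraries had 0.822, 2.03 and 2.23. KO-c43 had 1.94 in 1 library and was listed at 0 in the other two. Every WT library lay above every library of both lines, and the lines overlapped each other. Having entered the test through WT alone, Trp63 is given no p. The fitted log2 difference depends on the pseudocount: −2.99 and −3.86 with 1, −3.28 and −4.58 with 0.5, and −1.90 and −2.15 with 5. Values per gene do not tell the TAp63 and ΔNp63 isoforms apart. The nearest tested genes at higher coordinates were low in the lines as well. P3h2, for a collagen prolyl hydroxylase, had means of 528, 72.5 and 110 normalized counts in WT, KO-c19 and KO-c43 (limma adjusted p = 3.06e-14 and 8.04e-13), and the noncoding gene Gm4524 had 50.7, 11.7 and 9.86. On the side of lower coordinates the noncoding gene A230028O05Rik, 615 kb away, had means of 1.10, 95.9 and 21.9 and entered the test through the knockout lines alone. Lpp, 691 kb away on that side, had 99.8% and 102% of its WT mean.

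**Figure D3:**
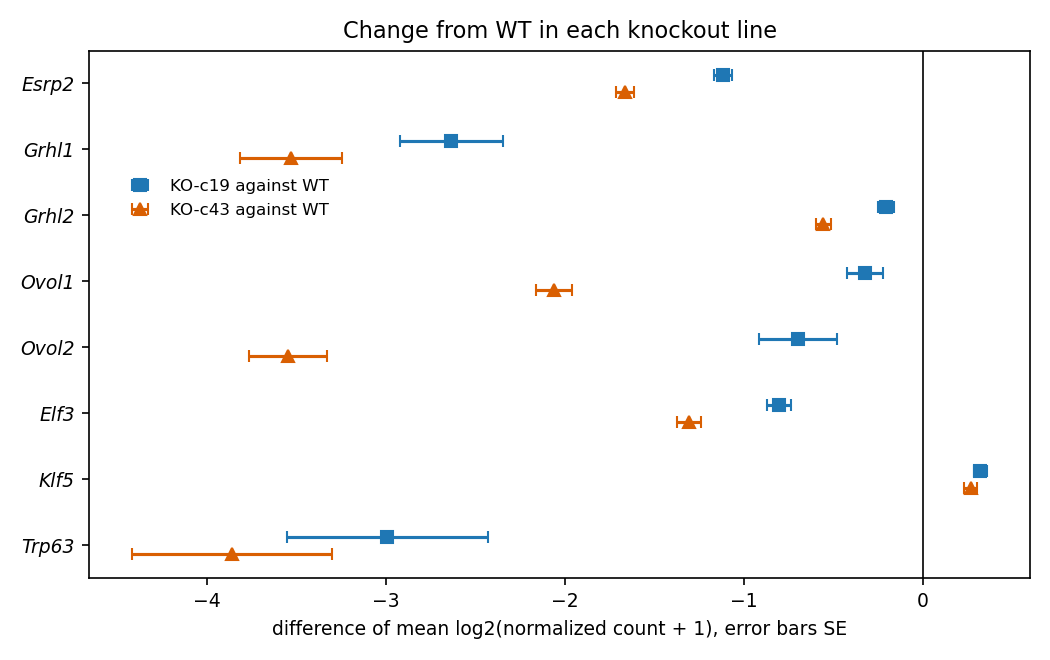
Difference of mean log2(normalized count + 1) between each knockout line and WT for 8 of the tested genes, with SE from limma; Esrp1 is left out because it was listed at 0 in KO-c19, and Ehf because it was not tested. Klf5 is the gene to the right of 0 in both lines, and Ovol1 and Ovol2 show the widest gap between the lines. Trp63 entered the test through WT alone, so its decrease was built in, and its position depends on the pseudocount.

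Ordered by level per kb of exon, the WT cells had most Klf5, at 1633 ± 47.2 normalized counts per kb (SD, n = 3). Esrp1 followed at 694 ± 22.9, then Esrp2 at 510 ± 17.2, Grhl2 at 388 ± 1.80 and Elf3 at 295 ± 12.3. Ovol1 stood at 157 ± 20.8 and Ovol2 at 54.9 ± 6.02. Grhl1 at 14.4 ± 2.19, Trp63 at 2.39 ± 0.485 and Ehf at 0.873 ± 0.436 closed the order, and no neighbours in it overlapped within their SD. In KO-c19 the leading genes were Klf5 at 2037 ± 39.4, Grhl2 at 336 ± 5.28, Esrp2 at 235 ± 9.40 and Elf3 at 168 ± 0.984. In KO-c43 the same 4 genes led in that order, with Klf5 at 1962 ± 64.1, Grhl2 at 264 ± 16.2, Esrp2 at 161 ± 4.28 and Elf3 at 119 ± 2.98. In both lines Trp63, Ehf and Esrp1, all at or under 0.202 per kb, formed the end of the order and did not differ from the next of them beyond their spread.

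The comparison of KO-c43 with KO-c19 asks whether the lines differ from each other. Of the 9 tested genes, 6 were lower in KO-c43, where 18.3% of all tested genes were lower and 21.1% higher, and 0 were higher in limma (0 also at an unadjusted p under 0.05). In either direction 39.4% of tested genes were called. A 2-fold difference was reached by Ovol1 and Ovol2, where 3.45% of tested genes were lower and 2.55% higher by as much. With each library divided by its total, 40.7% of all calls in this comparison were higher in place of 53.7%. Ovol2 differed most, by −2.85 ± 0.22 on the log2 scale, and Ovol1 by −1.74 ± 0.10 (limma adjusted p = 8.85e-09 and 2.32e-10). Esrp2 differed by −0.55 ± 0.050, Elf3 by −0.50 ± 0.067 and Grhl2 by −0.35 ± 0.044 (limma adjusted p = 7.36e-08, 7.75e-06 and 3.98e-06). Grhl1 differed by −0.90 ± 0.29 (limma adjusted p = 0.0188), which no longer passed without KO-c19 replicate 2, KO-c43 replicate 1 or KO-c43 replicate 3 (adjusted p = 0.0874, 0.0610 and 0.0523). Klf5 differed by −0.05, with a 95% interval from −0.13 to 0.024, and passed under the 3 other scalings (−0.11 with totals, −0.10 with upper quartiles and −0.12 with quantiles). For Trp63 the interval ran from −2.05 to 0.31.

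Gene lists are described beside the shares of all tested genes called, which were 32.8% higher and 34.9% lower in KO-c19, and 32.5% and 33.1% in KO-c43; no list was tested as a group. The known repressors of epithelial genes mostly rose. Of 11 listed, 9 were in the table and 8 were tested, of which 7 were higher and 1 lower in KO-c19 and 6 and 1 in KO-c43. Their median log2 change was 1.15 and 1.39. Twist2, with means of 3.21, 50.2 and 80.6, and Prrx1, with means of 1.77, 138 and 30.1, reached the minimum through the knockout lines alone. An increase was thus built into the entry of Twist2 and Prrx1, and both are part of these counts and medians. Zeb2 went from a mean of 1921 normalized counts in WT to 4763 and 5982, by 1.31 ± 0.041 and 1.64 ± 0.041 (limma adjusted p = 1.12e-14 and 4.77e-16). Twist1 went from 475 to 1913 and 1975, Tcf4 from 6996 to 12872 and 14086, and Foxc2 from 979 to 1939 and 2176, all past the threshold in both lines. Zeb1, the paralogue of Zeb2, was too low to be tested, at 8.88 to 18.9 normalized counts in WT, 0.822 to 3.04 in KO-c19 and 1.05 to 2.71 in KO-c43. Snai1 had means of 1203, 1385 and 1329 and passed in KO-c19 (0.20 ± 0.065, limma adjusted p = 0.0118) but not in KO-c43 (0.14 ± 0.065, 0.0698). The KO-c19 call for Snai1 was lost without WT replicate 3, without KO-c19 replicate 3 and with no intensity trend or robust step (adjusted p = 0.0589, 0.0565 and 0.0574), and that of KO-c43 was gained without its replicate 3 (0.0187), without KO-c19 replicate 1 (0.0358), with the 2 groups alone (0.0475) and under the 3 other scalings. The gene that fell was Snai3, from 85.8 normalized counts to 5.96 and 3.43; it entered the test through WT alone and was named after its values were seen. Snai2 was not analysed here.

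Most genes that GRHL and OVOL factors are linked to in epithelia were lower. All 24 listed were tested, 19 lower and 2 higher in KO-c19 and 23 lower and 0 higher in KO-c43 (0 also at an unadjusted p under 0.05). The median log2 change was −1.89 and −2.81. Of the 24, 6 entered the test through WT alone, so their decrease was built in. St14, for the protease matriptase, had mean normalized counts of 7705 in WT and of 2551 and 567 in the lines. Dsp, for the desmosomal plakin desmoplakin, went from 9575 to 3754 and 1292. Cdh1, for E-cadherin, kept 5797 and 3731 of 26262. Prom2 and Spint1 were higher in KO-c19, from 1694 to 4583 and from 2666 to 3945, and lower in KO-c43, at 663 and 1599; Spint1 encodes an inhibitor of matriptase.

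Basal genes linked to p63 went both ways. Of 25 listed, 22 were tested, 9 higher and 10 lower in KO-c19 and 10 higher and 11 lower in KO-c43, with medians of −0.23 and −0.22. Krt17 and Cdh3 entered the test through WT alone, so their decrease was built in. Krt15 entered through the knockout lines alone, so its increase was built in. Krt14, a keratin of basal cells, went from 4960 to 22.2 and 15.1 normalized counts, and Sfn, for the protein 14-3-3 sigma, from 5836 to 210 and 718. Perp, a desmosome-linked membrane protein gene, went from 10762 to 4947 and 2409. The integrin genes Itga3, Itga6 and Itgb4 rose in both lines.

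Other epithelial transcription factors and the paralogues of the 10 genes went both ways. Among 18 other epithelial factors 12 were tested, 7 higher and 3 lower in KO-c19 and 8 higher and 4 lower in KO-c43, with medians of 0.36 and 0.44. Tfap2c rose from 7.79 to 72.8 and 102 normalized counts, Tfap2a from 4784 to 6603 and 8173, Sox4 from 15968 to 19020 and 23218, and Runx1 from 6938 to 9711 and 8818. In this list Tfap2c entered the test through the knockout lines alone and Grhl3 through WT alone. The increase of Tfap2c and the decrease of Grhl3 were thus built in. Among 15 paralogues 11 were tested, 5 higher and 4 lower in each line, with medians of 0.07 and −0.0082. Of the 4 lower, Grhl3 and Tfcp2l1 entered the test through WT alone, so their decrease was built in. Tfcp2l1 had means of 103, 3.29 and 2.94 in WT, KO-c19 and KO-c43. Klf4, which like Klf5 belongs to the Krüppel-like factors, rose from 223 to 416 and 481, and Klf3 from 5071 to 6486 and 8698. Klf6 fell from 10854 to 4990 and 8166.

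Other regulators of epithelial and mesenchymal exons went both ways. Of 20 listed, 17 were tested, 5 higher and 11 lower in KO-c19 and 5 higher and 9 lower in KO-c43, with medians of −0.22 and −0.13. Rbm47 rose from 3231 to 4464 and 5177 normalized counts, and Celf2 from 3660 to 3938 and 7530. The KO-c19 change of Celf2 was 0.10 ± 0.037 (limma adjusted p = 0.0185) and was lost without WT replicate 1 or without KO-c19 replicate 3 (adjusted p = 0.0694 and 0.0639). Celf1 fell from 15883 to 13447 and 10851, and Elavl1 from 10854 to 7838 and 8101. Among 18 host genes of exons that Esrp proteins regulate, all were tested, 7 higher and 6 lower in KO-c19 and 6 of each in KO-c43, with medians of −0.0055 and 0.032, close to the shares and medians of all tested genes. Fgfr2 rose from 2786 to 7664 and 5364, and Itga6 from 12078 to 19708 and 22593, while Afdn fell from 18918 to 10306 and 11665 and Enah from 3881 to 2104 and 2924. Which exons these transcripts held was not measured.

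**Figure D4:**
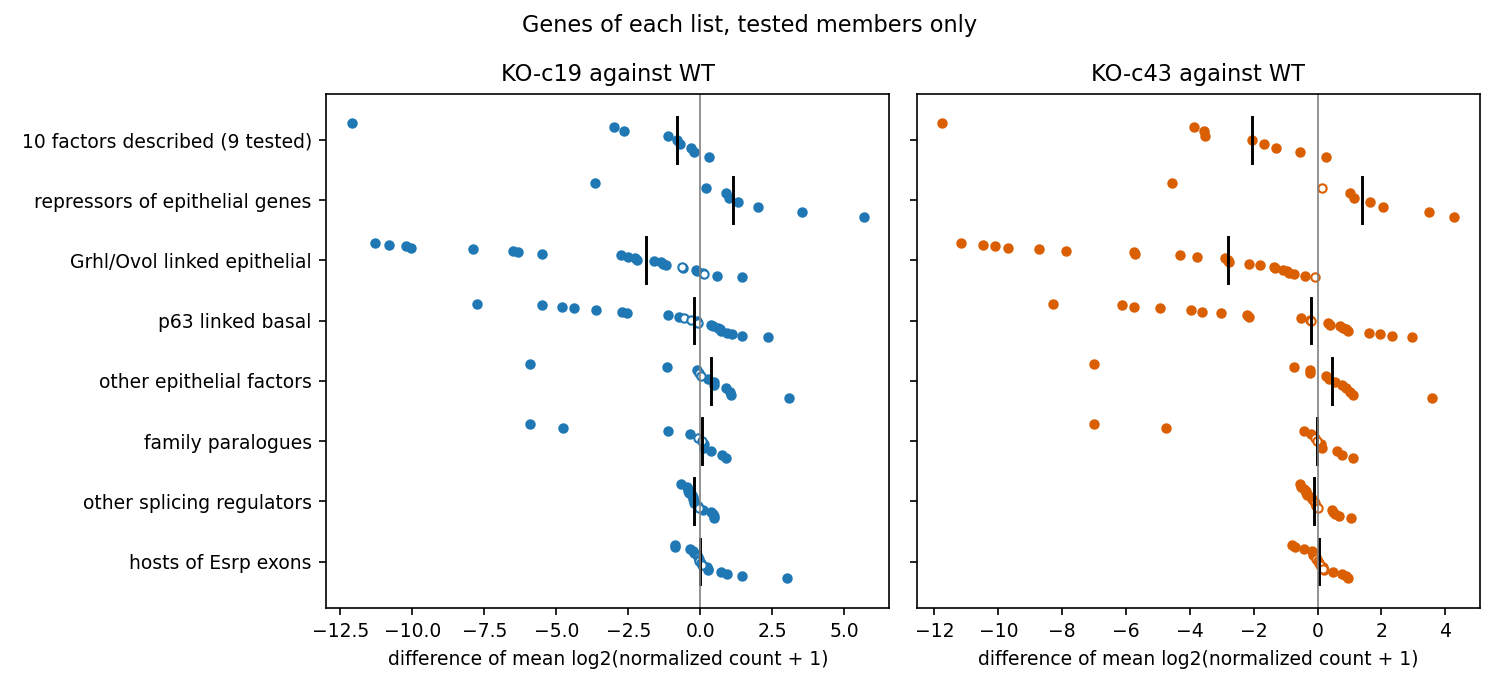
Difference of mean log2(normalized count + 1) from WT for the tested genes of each list, KO-c19 at left and KO-c43 at right on scales of their own; filled points passed adjusted p under 0.05, open points did not, and vertical bars are list medians. The list of repressors lies mostly to the right of 0, the Grhl and Ovol linked genes mostly to the left, and the points farthest left are genes at or near 0 in the lines, whose position depends on the pseudocount. The points farthest right, Prrx1, Twist2 and Tfap2c, were low in WT, so their position depends on the pseudocount as well. Prrx1, Twist2 and Tfap2c entered the test through the knockout lines alone.

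The genes most like each member over the 9 libraries were found by Pearson's r of log2(normalized count + 1), as a description, since the libraries fall into 3 groups. For Esrp1 they were Mal2, Ap1m2 and Fam83b (r = 0.99996, 0.9999 and 0.9996), all at 0 in KO-c19 and at 0.349 on average in KO-c43. Each of them, like Esrp1, had reads in WT and almost none in the lines, so an r near 1 was built in. Mal2 and Ap1m2 also belong to the list of Grhl and Ovol linked genes. Elf3 was closest to Gramd2, Mtch2 and Mmp9 (0.998, 0.997 and 0.997), and Esrp2 to Mfsd2a, Zdhhc23 and Noc2l (0.999, 0.998 and 0.998). Ovol1 was closest to Mapk13, Rapsn and Nectin1 (0.993, 0.993 and 0.991), which like it were low in KO-c43, and Ovol2 to Sp6, Zfp612 and Ttll5 (0.996, 0.992 and 0.991). Grhl2 was closest to Morf4l1-ps1, Susd1 and D10Wsu102e (0.992, 0.992 and 0.989). Klf5 was closest to Kazald1, Tm9sf1 and Sppl3 (0.992, 0.991 and 0.990), all higher in both lines than in WT.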

How the data were processed

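Ribosomal RNA was removed from total RNA of 4T1 cells, and 9 libraries were sequenced, 3 each of WT, KO-c19 and KO-c43. The submitters' processing notes list mm10, STAR, cutadapt and Partek without versions. Neither the counting step nor its annotation is given in the sources used here. Each deposited signal value was taken as a read count per gene divided by a factor of its library, and the worth of 1 read was estimated. Taking values of at most 20 reads by that estimate, 83.3% to 84.1% per library came within 0.1 of a whole read. This is too few to recover reads, and no count model was fitted. Of 22292 identifiers matched to a GRCm38 annotation, 574 had the same start within 1 base and 22023 the same length, so coordinates of the deposited file are printed as given.

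Values were taken as log2(value + 1). Genes with at least 10 in at least 3 of 9 libraries, 17579 in all, were fitted in limma 3.58.1 (statmod 1.5.0, R 4.3.3, package data.table of version 1.17.8) with group means, an intensity trend and robust empirical Bayes, two-sided, with Benjamini-Hochberg adjustment over all tested genes and a threshold of 0.05. The fit was tested on simulated data. The 10 genes and the 11 lists were chosen with earlier results of these data known. All members were named, and from each list of genes, other than cell type markers, up to 4 with the smallest adjusted p, with Zeb1, Zeb2, Snai1, Snai2 and Twist1; some genes that this rule picks are not reported here. Most alike genes had a group mean of at least 100. Replicate numbers were not treated as pairs: deviations of same-numbered libraries correlated between −0.0914 and 0.0754. Other genes named beside these were chosen after their values were seen. They were Krt8, Krt18, Muc1, Prom2, Spint1, Itga3, Itgb4, Twist2, Prrx1, Krt15, Krt17, Cdh3, Tfcp2l1, fibroblast and immune markers and the neighbours. Python 3.11.15 with matplotlib 3.10.9 drew the figures.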

Additional observations from a re-analysis of the deposited data

Results flagged for a closer look

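The change from WT differed between the knockout lines, by the limma test of KO-c43 against KO-c19, for 6 genes. The log2 change in KO-c43 minus that in KO-c19 was −2.85 for Ovol2, −1.74 for Ovol1, −0.90 for Grhl1, −0.55 for Esrp2, −0.50 for Elf3 and −0.35 for Grhl2. All 6 were lower in KO-c43, and for each of them every KO-c43 library lay below every KO-c19 library. Among all tested genes, 23% had such a separation downward and 24.9% upward.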

How the results depend on the processing

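Requiring at least a 2-fold change left 4 members lower and 0 higher in KO-c19, 7 lower and 0 higher in KO-c43, and 2 lower in KO-c43 against KO-c19. Over all genes it left 1127 lower and 1592 higher for KO-c19, 1087 and 1456 for KO-c43, 606 and 449 between the lines. Leaving out 1 library at a time gave 7 to 8 members lower in KO-c19, 8 in KO-c43 and 5 to 6 between the lines. Of 540 values for members under an alternative, 516 kept their direction and side of the threshold, 19 lost the call and 5 gained one, and none changed sign. Fits that left out a library of the group not compared are among them. The counts of members in this paragraph include Esrp1 and Trp63, whose decrease against WT was built into their entry. The replicate numbers did not pair the libraries (1 of 9 libraries was closest to its own number), and with the replicate number as a block all 27 tests of members kept their call, with 8 lower in each line and 6 lower between the lines. The call for Grhl1 between the lines was also lost when the test used the 2 groups alone (adjusted p = 0.0750). Among the lists, 3 paralogues in place of 5 were higher in KO-c43 without WT replicate 3, 3 host genes in place of 6 were lower in KO-c43 with quantile normalization, and without the filter 2 repressors in place of 1 were lower in each line, the added gene being Zeb1. The causes were not tested. Scaling by totals or upper quartiles moved the median log2 change of all genes to 0.10 in KO-c19.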
